A study of Homo sapiens with 11 samples.

Results

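The respiratory chain subunits are the proteins of the 5 enzyme complexes of the inner mitochondrial membrane, and their genes lie in both the nuclear and the mitochondrial genome. Members were chosen by name and place: the genes that the deposited counts put on chromosome M, and the nuclear genes whose symbols follow the naming pattern of the subunits (NDUFA, NDUFB, NDUFC, NDUFS and NDUFV with a number, SDHA to SDHD, the UQCR genes and CYC1, COX4 to COX8, and ATP5F, ATP5M and ATP5P). This gave 98 of 38557 annotated genes, 13 of them mitochondrial and 85 nuclear. By complex there were 43 genes for complex I, 4 for complex II, 10 for complex III, 21 for complex IV and 20 for complex V. The naming rule uses no measured value, although it was set with earlier results of these data known. NDUFA4, whose name follows complex I, was placed in complex IV, where its protein is known to reside.

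The libraries came from the MOLM-13 line of human acute myeloid leukemia, and all were poly(A) RNA taken after 72 h of treatment. Controls received DMSO, the diluent (n = 4, replicates 1 to 4). MI-503 cells received 1 µM MI-503, an inhibitor of the binding of Menin to KMT2A (n = 4, replicates 1 to 4). The combination received 1 µM MI-503 with 100 nM PR-957, also named ONX-0914, an inhibitor of the immunoproteasome subunit PSMB8 (n = 3, replicates 1, 2 and 4). MOLM-13 carries a KMT2A rearrangement, which all groups share. No library here had PR-957 alone, so its effect was read only on top of MI-503. The labels do not say whether replicates were separate cultures, and the p-values measure only the spread between these libraries, which may be technical.

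Complexes I and II pass electrons from NADH and succinate to coenzyme Q, complex III passes them to cytochrome c, complex IV passes them to oxygen, and complex V makes ATP from the proton gradient that I, III and IV build up. Mitochondrial DNA encodes a few core subunits of I, III, IV and V and none of II, and it is read as long transcripts that are cut into mRNAs. All other subunits, and every protein that copies or reads mitochondrial DNA, come from nuclear genes, so that I, III, IV and V are built from products of both genomes. Many leukemia cells are known to rely on oxidative phosphorylation.

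Libraries held 18.9 to 41.2 M counted fragments, the deepest being combination replicate 1. All 7 myeloid markers passed the filter on low counts, with a summed level of 1479 to 1549 CPM (counts scaled to the library total) in DMSO, 1990 to 2103 in MI-503 and 2174 to 4547 in the combination. None of 4 T cell and none of 4 erythroid markers passed, with at most 14 and 35 counts over all libraries, CD2 being at 0. Of the B cell list 3 of 4 passed, mostly through PAX5, and its sum fell from between 47.6 and 49.2 CPM in DMSO to between 33.4 and 34.5 CPM in MI-503 and between 24.9 and 28.5 CPM in the combination, with MS4A1 at 0. Of the stroma list 1 of 3 passed, with sums from 0.139 to 1.09 CPM over all groups. Of the 7 myeloid markers 6 were higher and 1 lower in MI-503 against DMSO (22.0% and 29.3% of all genes) at an adjusted p under 0.05 (edgeR). In the combination 5 were higher and 1 lower against DMSO (31.7% and 32.8%). Against MI-503, 3 were higher and 2 lower (23.6% and 23.8%), with a median log2 fold change of -0.09, so the myeloid sum does not stand for each marker. The part of these changes in the results was not tested. In bulk RNA, fewer cells of a kind and less RNA per cell cannot be told apart.

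The promoters of the nuclear members were searched for 3 strings. A window from 250 bases before to 50 bases after the start was found in RefSeq (GRCh38.p14) for 68 of the 85. Of these, 13 (19.1%) held GCATGCGC on either strand, the core of the site of NRF1, against 3.05% of all 35116 promoters. CCGGAAG, the core of sites of ETS factors such as GABPA, was in 20 (29.4%, against 10.3% of all), and AAGATGGCG, the core of the YY1 site, in 8 (11.8%, against 1.75%). At least 1 of these strings was in 31 (45.6%) members' promoters and in 14.0% of all promoters, so most of the members' promoters held none. The comparison was with all promoters and not with those of other expressed genes. Shown here are the promoters of SDHB and ATP5PF, which hold all 3 strings, of COX5B, which holds 2 of them in 3 copies, and of SDHA, the subunit gene with the strongest fall. Capitals mark these strings in the first 3. In SDHA, which has none of them, they mark GCGCAGGCGC, a string of 10 letters present in 4 copies at a spacing of 49 bases, the highest number in this promoter and reached by 2 such strings. That string was looked for after the sequence had been seen. It was in 10 of 68 members' promoters on either strand (14.7%) and in 2.97% of all, and 9 of 35116 promoters held at least 4 copies.
SDHB promoter, chr1:17053983-17054282, minus strand: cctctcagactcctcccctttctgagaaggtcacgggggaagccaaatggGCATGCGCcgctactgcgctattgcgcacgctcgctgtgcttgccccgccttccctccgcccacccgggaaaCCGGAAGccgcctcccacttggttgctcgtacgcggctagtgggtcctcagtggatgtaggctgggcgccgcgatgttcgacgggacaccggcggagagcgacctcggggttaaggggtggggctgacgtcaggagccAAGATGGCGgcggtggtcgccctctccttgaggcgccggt
ATP5PF promoter, chr21:25735005-25735304, minus strand: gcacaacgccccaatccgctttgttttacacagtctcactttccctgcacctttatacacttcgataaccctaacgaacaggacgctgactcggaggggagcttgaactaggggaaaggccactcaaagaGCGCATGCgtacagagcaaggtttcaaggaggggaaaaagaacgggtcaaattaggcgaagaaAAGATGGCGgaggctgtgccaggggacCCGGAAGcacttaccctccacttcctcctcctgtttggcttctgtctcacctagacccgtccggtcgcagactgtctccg
COX5B promoter, chr2:97645812-97646111, plus strand: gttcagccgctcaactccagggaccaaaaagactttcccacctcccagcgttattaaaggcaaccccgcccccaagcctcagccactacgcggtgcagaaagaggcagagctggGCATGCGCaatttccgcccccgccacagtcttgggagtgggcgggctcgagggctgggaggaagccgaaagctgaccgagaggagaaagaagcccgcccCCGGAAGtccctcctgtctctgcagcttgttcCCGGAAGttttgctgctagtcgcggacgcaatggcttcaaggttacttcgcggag
SDHA promoter, chr5:218070-218369, plus strand: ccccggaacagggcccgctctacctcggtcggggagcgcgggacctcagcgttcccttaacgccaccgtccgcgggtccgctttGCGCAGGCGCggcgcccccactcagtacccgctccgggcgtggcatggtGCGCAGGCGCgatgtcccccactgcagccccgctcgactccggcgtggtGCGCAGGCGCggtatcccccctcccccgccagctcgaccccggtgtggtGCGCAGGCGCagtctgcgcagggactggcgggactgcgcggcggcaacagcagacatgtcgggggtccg

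The level of a gene was given per length as FPKM, fragments per kilobase of exon, scaled to the library total with TMM factors. Exon bases were added over all contigs on which a gene is annotated, so that NDUFA6 counted 5360 bases against 1072 on its main chromosome. In DMSO the median over the 13 mitochondrial genes was 3230 FPKM and that over the 75 nuclear members that passed the filter was 84.1 FPKM. The highest mitochondrial level was that of COX1 (9309 ± 524 FPKM, SD, n = 4), which encodes the catalytic subunit of complex IV. The highest nuclear level was that of ATP5F1B (794 ± 15.7 FPKM), the catalytic beta subunit of ATP synthase. Among nuclear members the median level was 57.4 FPKM for complex I, 63.7 for II, 81.2 for III, 125 for IV and 120 for V.

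The shares of the library held by the mitochondrial and the nuclear genes moved in opposite directions in MI-503. In the combination only the nuclear share lay apart from DMSO. The 13 mitochondrial genes took 5.76, 5.07, 5.06 and 5.29% of counted fragments in DMSO, 6.01, 6.15, 6.01 and 6.01% in MI-503 and 5.77, 4.88 and 5.01% in the combination. The 85 nuclear members took 1.10, 1.07, 1.12 and 1.11% in DMSO, 0.945, 0.939, 0.971 and 0.960% in MI-503 and 0.813, 0.897 and 0.941% in the combination. All MI-503 libraries were thus above all DMSO libraries for the mitochondrial share and below them for the nuclear share. In the combination the nuclear share of replicate 4 lay within the range of MI-503, and the mitochondrial share of replicate 1 lay above that of each DMSO library. Mitochondrial fragments per nuclear subunit fragment numbered 4.81 ± 0.297 for DMSO (SD, n = 4). They numbered 6.34 ± 0.157 for MI-503 (n = 4) and 5.95 ± 0.990 for the combination (n = 3), whose replicates 1, 2 and 4 gave 7.09, 5.44 and 5.32. No p-value was attached to these sums, as the members were chosen with earlier results known.

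**Figure D1:**
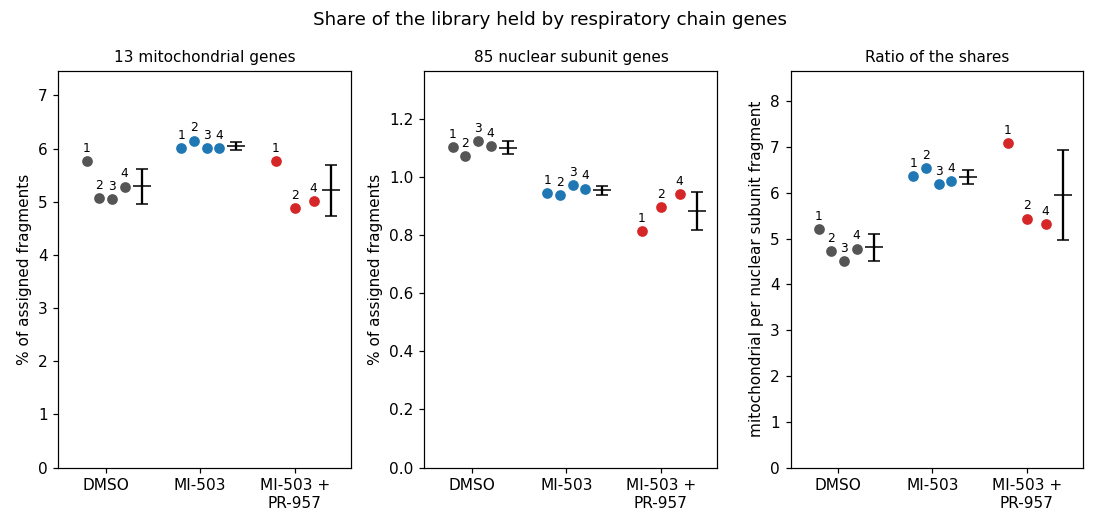
Percentage of counted fragments in the 13 mitochondrial genes (left) and the 85 nuclear subunit genes (middle), and their ratio (right), in each library; points carry replicate numbers and the bars beside them are mean ± SD. The MI-503 points lie above DMSO on the left and below it in the middle, and combination replicate 1 has the highest ratio, 7.09.

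MI-503 lowered the transcripts of nuclear subunits in all 5 complexes and raised several mitochondrial ones. Of 75 tested nuclear members 53 were lower, where 29.3% of all 14683 genes were lower, and 0 were higher, where 22.0% of all were (edgeR quasi-likelihood test, adjusted p under 0.05). The median log2 fold change of nuclear members was -0.22, against -0.03 over all genes tested. This comparison holds no combination library, yet leaving 1 out of the shared fit shifted the medians up. Without replicates 1, 2 and 4 of the combination the median over all genes was 0.02, 0.01 and 0.01. The nuclear median was then -0.17, -0.17 and -0.18. Calls of small changes in this comparison thus moved with a shift common to many genes, whose cause was not tested. Groups did not overlap for 60 nuclear members, 59 of them lower, against 50.3% of all genes in either direction. At an unadjusted p, 1 nuclear member was higher under 0.05, and DESeq2 called 1. Of the 13 mitochondrial genes 6 were higher and 1 lower, with a median of 0.06, or 0.10 in each fit without 1 combination library. By complex 22 of 33 tested nuclear members fell in I, 3 of 4 in II, 7 of 8 in III, 8 of 13 in IV and 13 of 17 in V.

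The combination lowered nuclear subunit transcripts in all 5 complexes and raised no mitochondrial one past the test. Against DMSO 65 nuclear members were lower (32.8% of all genes) and 2 higher (31.7% of all genes), with a median log2 fold change of -0.38, against 0.01 over all genes tested. Groups did not overlap for 65 nuclear members, 63 of them lower, against 60.5% of all genes. Of the mitochondrial genes 3 were lower and 0 higher, with a median of -0.11. Mitochondrial genes higher at an unadjusted p under 0.05 numbered 0, and DESeq2 also called 0. Without combination replicate 1, 59 nuclear members were lower and 5 higher, and 7 mitochondrial genes were lower.

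Set against MI-503 alone, the combination had 35 nuclear members lower (23.8% of all genes) and 4 higher (23.6% of all genes), with a median log2 fold change of -0.17, against 0.00 over all genes tested. Of the mitochondrial genes 8 were lower and 0 higher, with a median of -0.28. Groups did not overlap for 32 nuclear and 9 mitochondrial genes, against 47.6% of all genes. Mitochondrial genes higher at an unadjusted p under 0.05 numbered 0, and DESeq2 called 0. Nuclear members called lower were 11 of 33 in complex I, 1 of 4 in II, 4 of 8 in III, 6 of 13 in IV and 13 of 17 in V. The fit behind these values did not pair libraries by replicate number. In an alternative fit with the number as a block over all groups 32 nuclear members were lower, NDUFS8, NDUFC2 and ATP5ME losing the call. The counts of nuclear members depended on single combination libraries: 57 were lower and 1 higher without replicate 4, 39 and 1 without replicate 2, and 32 and 7 without replicate 1. In these libraries the median of the nuclear members, as log2 CPM relative to the DMSO mean, was -0.52 in replicate 1, -0.38 in replicate 2 and -0.25 in replicate 4, and in MI-503 it ran from -0.24 to -0.18.

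**Figure D2:**
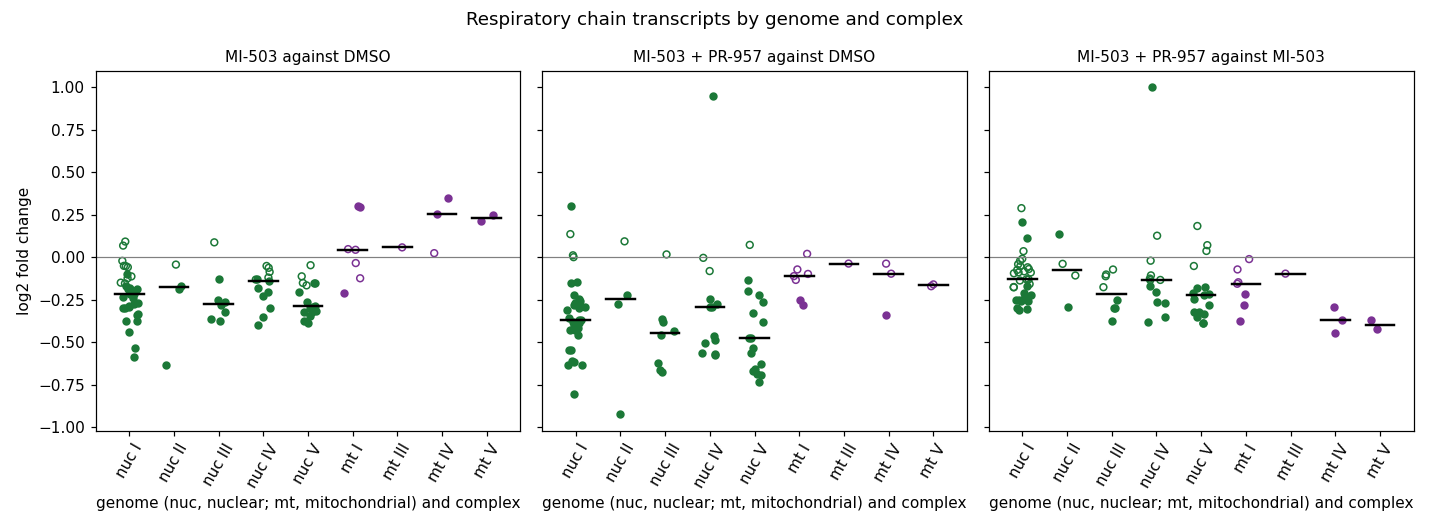
Log2 fold change of each tested member in the 3 comparisons, by genome and complex; filled points passed the test at an adjusted p under 0.05, open points did not, and black bars are medians. Nuclear medians lie below 0 in every complex and comparison, and mitochondrial medians lie above 0 only in MI-503 against DMSO.

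Nuclear members have short transcripts, with a median of 1313 exon bases against 4009 over all genes tested. Among the 994 tested genes under 1000 bases the median log2 fold change was -0.03 for MI-503 against DMSO, -0.05 for the combination against DMSO and -0.05 for the combination against MI-503. For the 29 nuclear members of that length it was -0.18, -0.41 and -0.18. All short genes together stood at -0.06 in combination replicate 1, at -0.01 in replicate 2 and at -0.02 in replicate 4, as log2 CPM relative to the DMSO mean.

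In complex I, which takes electrons from NADH, the strongest fall was that of NDUFV2, an iron-sulfur subunit of the arm that oxidizes NADH. It stood at 88.0, 84.6, 87.2 and 86.6 CPM in DMSO, 56.5, 56.3, 59.7 and 58.7 CPM in MI-503 and 48.8, 47.6 and 52.2 CPM in the combination. The groups did not overlap in any comparison. Its log2 fold change was -0.58 (SE 0.04, adjusted p = 8.30e-09) in MI-503 and -0.81 (SE 0.05, adjusted p = 1.54e-10) in the combination, both against DMSO, and -0.22 (SE 0.05, adjusted p = 0.000758) between the treatments. Of the 7 nuclear core subunits that carry the electron path, 5 were tested, of which 4 fell in MI-503 (29.3% of all genes) and 5 in the combination against DMSO (32.8% of all genes). NDUFS1 and NDUFS3, also of this core, had 0 and 5 counts over all libraries.

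Against this direction, NDUFB5, an accessory subunit of the membrane arm, was the nuclear complex I member with the highest fold change at a mean of 5 CPM or more. Its levels were 75.0, 75.4, 74.7 and 77.3 CPM in DMSO, 81.3, 82.7, 82.2 and 76.1 CPM in MI-503 and 82.9, 97.3 and 99.7 CPM in the combination. All combination libraries lay above all DMSO libraries, and replicate 1 of the combination was only just above the highest MI-503 library. The log2 fold change was 0.09 (SE 0.05, adjusted p = 0.156) in MI-503, 0.30 (SE 0.06, adjusted p = 0.000182) in the combination against DMSO and 0.21 (SE 0.06, adjusted p = 0.00622) between the treatments. The last call was lost without combination replicate 2 (0.14, adjusted p = 0.102) or replicate 4 (0.12, adjusted p = 0.124). In MI-503 against DMSO it was called higher when combination replicate 1 (0.14, adjusted p = 0.00325) or replicate 4 (0.13, adjusted p = 0.0350) was left out.

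NDUFA10, an accessory subunit on the matrix side, was slightly lower in MI-503 at -0.10 (SE 0.04, adjusted p = 0.0404) and higher in the combination than in MI-503 at 0.11 (SE 0.04, adjusted p = 0.0349), with 0.01 (SE 0.04, adjusted p = 0.809) against DMSO. The first of these calls was lost in 9 and the second in 5 of the 11 fits without 1 library. NDUFB10, an accessory subunit of the membrane arm, had the lowest value between the treatments in complex I, -0.31 (SE 0.07, adjusted p = 0.00108). It stood at -0.15 (SE 0.06, adjusted p = 0.0523) in MI-503 and -0.46 (SE 0.07, adjusted p = 1.21e-05) in the combination against DMSO, the former being called without combination replicate 1 (-0.10, adjusted p = 0.0244).

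Complex II, succinate dehydrogenase, has no mitochondrial subunit and also serves in the citric acid cycle. SDHA, the flavoprotein that oxidizes succinate, fell more against DMSO than any other nuclear member at a mean of 5 CPM or more. It was measured at 362, 349, 361 and 346 CPM in DMSO, 218, 232, 236 and 227 CPM in MI-503 and 188, 184 and 189 CPM in the combination. The groups were fully apart, with each combination library below each MI-503 library. The log2 fold change was -0.63 (SE 0.04, adjusted p = 8.66e-10) in MI-503 and -0.92 (SE 0.04, adjusted p = 1.10e-11) in the combination, with -0.29 (SE 0.04, adjusted p = 2.33e-05) between them. Of its 100-base exon windows 9.63% recur exactly elsewhere on the main chromosomes. Whether fragments of SDHA went uncounted for this reason was not tested.

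The other subunits of complex II moved less. SDHB, the iron-sulfur subunit, was at 90.3, 85.6, 91.4 and 90.8 CPM in DMSO, 74.0, 77.8, 81.0 and 82.2 CPM in MI-503 and 73.4, 76.4 and 80.6 CPM in the combination, with log2 fold changes of -0.19 (SE 0.05) and -0.22 (SE 0.05) against DMSO, both called lower, and -0.04 (SE 0.05, adjusted p = 0.558) between the treatments. SDHD, a membrane anchor, was lower at -0.17 (SE 0.04) and -0.27 (SE 0.04) against DMSO and stood at -0.11 (SE 0.04, adjusted p = 0.0501) between the treatments, where it was called in 4 of the 11 fits without 1 library, such as that without combination replicate 4 (-0.17, adjusted p = 0.00550). Of the windows of SDHD 14.6% recur elsewhere on the main chromosomes. SDHC, the other anchor, was the only subunit of the complex not called against DMSO. Its levels were 146, 146, 137 and 147 CPM in DMSO, 138, 140.4, 147 and 134 CPM in MI-503 and 146, 159 and 156 CPM in the combination, and its groups overlapped in every comparison. It was not called against DMSO, at -0.04 (SE 0.04, adjusted p = 0.435) and 0.09 (SE 0.05, adjusted p = 0.0798), and was higher in the combination than in MI-503 at 0.14 (SE 0.05, adjusted p = 0.0206). That call was lost without MI-503 replicate 4 (0.12, adjusted p = 0.0624), combination replicate 2 (0.08, adjusted p = 0.269) or combination replicate 4 (0.09, adjusted p = 0.190), and without combination replicate 1 SDHC was called higher against DMSO (0.15, adjusted p = 0.00574).

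In complex III, UQCRFS1, the Rieske iron-sulfur protein, had the smallest adjusted p against DMSO. It stood at 156, 145, 155 and 158 CPM in DMSO, 115, 119, 121 and 122 CPM in MI-503 and 92.6, 94.4 and 104 CPM in the combination. Each treatment group lay below DMSO and the combination lay below MI-503, with log2 fold changes of -0.36 (SE 0.04, adjusted p = 3.46e-06), -0.66 (SE 0.05, adjusted p = 3.26e-09) and, between treatments, -0.30 (SE 0.05, adjusted p = 8.44e-05). Of its windows 11.3% recur elsewhere. UQCRQ, a small subunit, had the lowest fold change, -0.38 (SE 0.09, adjusted p = 0.00300) in MI-503 and -0.67 (SE 0.10, adjusted p = 2.18e-05) in the combination. Its value between treatments, -0.30 (SE 0.10, adjusted p = 0.0261), lost its call without MI-503 replicate 2 (-0.30, adjusted p = 0.0501), MI-503 replicate 3 (-0.27, adjusted p = 0.0683) or combination replicate 1 (-0.13, adjusted p = 0.0676). UQCR11, another small subunit, was lowest between treatments at -0.37 (SE 0.08, adjusted p = 0.000837), after -0.25 (SE 0.07) and -0.62 (SE 0.08) against DMSO.

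UQCRH, the hinge protein of complex III, had the smallest adjusted p between treatments, -0.25 (SE 0.04, adjusted p = 3.93e-05), and was called lower against DMSO at -0.12 (SE 0.04) and -0.38 (SE 0.04). The first of these was lost without combination replicate 2 (-0.09, adjusted p = 0.0556). UQCRB, which takes part in binding coenzyme Q, was the only tested nuclear member of complex III with a positive value in MI-503. It was at 232, 226, 224 and 232 CPM in DMSO and 253, 237, 242 and 240.5 CPM in MI-503, groups that did not overlap. Its log2 fold change was 0.09 (SE 0.04, adjusted p = 0.0684). Leaving out 1 combination library, which shifted the median over all genes up as well, made it a call. UQCRB was then at 0.13 without replicate 1 (adjusted p = 0.00292), replicate 2 (adjusted p = 0.0154) or replicate 4 (adjusted p = 0.00622). In the combination it stood at 0.02 (SE 0.04, adjusted p = 0.731) against DMSO and -0.07 (SE 0.04, adjusted p = 0.181) against MI-503, where it was called lower without combination replicate 4 (-0.15, adjusted p = 0.0105). UQCRC2, a core protein, had 60 counts over all libraries.

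In complex IV, cytochrome c oxidase, COX5B carried the smallest adjusted p of its nuclear members in both comparisons of the combination. COX5B, which surrounds the catalytic core, was at 127, 120.1, 129.6 and 129.8 CPM in DMSO, 106, 109, 114 and 118 CPM in MI-503 and 77.1, 85.2 and 95.8 CPM in the combination. The groups were ordered without overlap, with log2 fold changes of -0.18 (SE 0.06, adjusted p = 0.0139), -0.56 (SE 0.06, adjusted p = 5.71e-07) and -0.38 (SE 0.06, adjusted p = 0.000105) in the order MI-503, combination, and combination against MI-503. The call in MI-503 was lost without MI-503 replicate 1 (-0.16, adjusted p = 0.0518) or combination replicate 2 (-0.14, adjusted p = 0.0614). COX7C, a small subunit, was not called in any comparison, at -0.06 (SE 0.04, adjusted p = 0.267), -0.08 (SE 0.05, adjusted p = 0.153) and -0.02 (SE 0.05, adjusted p = 0.772). It was called lower in the combination against DMSO without combination replicate 4 (-0.12, adjusted p = 0.0360). NDUFA4 was not called either, at -0.13 (SE 0.07, adjusted p = 0.135), -0.0023 (SE 0.08, adjusted p = 0.980) and 0.13 (SE 0.08, adjusted p = 0.178). Without combination replicate 1 it was called higher in the combination, both against DMSO (0.13, adjusted p = 0.0344) and against MI-503 (0.22, adjusted p = 0.00156).

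Complex IV is known for subunits with tissue isoforms. For COX4I, COX6A, COX6B and COX7B the broadly expressed form was the one measured in MOLM-13. COX4I1 had 348 ± 9.21 FPKM in DMSO, COX6A1 320.4 ± 16.7, COX6B1 403 ± 13.5, COX7B 24.8 ± 1.66 and COX8A 303 ± 16.6 FPKM (SD, n = 4). Their counterparts COX4I2, COX6A2, COX6B2, COX7B2 and COX8C had 1, 2, 24, 1 and 0 counts over all 11 libraries. Exons of COX8C are annotated on a further contig as well, so its 0 counts are not given here as low expression. COX6A1 and COX7B fell in MI-503 at -0.35 (SE 0.06) and -0.30 (SE 0.06) and in the combination at -0.49 (SE 0.06) and -0.57 (SE 0.07), and 30.4% of the windows of COX6A1 recur elsewhere. COX8A had the lowest fold change of complex IV in the combination, -0.58 (SE 0.07, adjusted p = 1.37e-06), after -0.23 (SE 0.06, adjusted p = 0.00613) in MI-503. COX4I1 and COX6B1 fell in the combination at -0.29 (SE 0.05) and -0.27 (SE 0.06). Their smaller values in MI-503, -0.13 (SE 0.05, adjusted p = 0.0332) and -0.14 (SE 0.05, adjusted p = 0.0311), were called, but lost the call in 9 and 7 of the 11 fits that left out 1 library.

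The COX7A family moved in both directions. COX7A2, the form found in most tissues, was at 156, 146, 155 and 154 CPM in DMSO, 113, 116, 121 and 114 CPM in MI-503 and 94.5, 105 and 124 CPM in the combination. It was lower in MI-503 and in the combination than in DMSO, at -0.40 (SE 0.06, adjusted p = 4.37e-05) and -0.50 (SE 0.07, adjusted p = 4.41e-06). COX7A2L, which helps to join complexes III and IV, stood at -0.12 (SE 0.05, adjusted p = 0.0664) in MI-503 and fell at -0.24 (SE 0.06, adjusted p = 0.00113) in the combination. COX7A1, the form of heart and skeletal muscle, was scarce at 0.878, 0.965, 0.901 and 0.807 CPM in DMSO, 0.926, 0.959, 0.908 and 0.614 CPM in MI-503 and 2.08, 1.61 and 1.38 CPM in the combination. Its combination libraries lay above all others, with log2 fold changes of 0.95 (SE 0.21, adjusted p = 0.000757) against DMSO and 1.00 (SE 0.21, adjusted p = 0.000772) against MI-503, while MI-503 alone gave -0.05 (SE 0.22, adjusted p = 0.882). COX7A1 had the largest of all members' values between treatments, and its level in the combination was 4.96 ± 1.05 FPKM, against 59.6 ± 8.28 FPKM for COX7A2 (SD, n = 3).

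Complex V, ATP synthase, had the largest share of its tested nuclear members called lower between the treatments, 13 of 17. Without combination replicate 4 it had 14 of 17 and complex III had 8 of 8. ATP5F1A, the alpha subunit of the catalytic head, was at 799.7, 741, 777 and 784 CPM in DMSO, 595, 601, 625 and 618 CPM in MI-503 and 470.3, 455 and 473 CPM in the combination. The groups stood apart in every comparison, with log2 fold changes of -0.35 (SE 0.04, adjusted p = 1.35e-06), -0.73 (SE 0.04, adjusted p = 1.95e-10) and -0.39 (SE 0.04, adjusted p = 1.41e-06) for MI-503, the combination, and the combination against MI-503. ATP5MF, a small membrane subunit, had the lowest value between treatments, -0.39 (SE 0.07, adjusted p = 0.000364), and 30.6% of its exon bases are shared with the read-through gene ATP5MF-PTCD1. ATP5PF, of the stalk that holds the head, had the lowest value in MI-503, -0.39 (SE 0.08, adjusted p = 0.000906), and 33.4% of its exon bases overlap those of GABPA. Its value between treatments, -0.24 (SE 0.09, adjusted p = 0.0371), was lost without combination replicate 1 (-0.12, adjusted p = 0.113), without any of MI-503 replicates 2, 3 and 4, or without DMSO replicate 3.

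ATP5MC1, ATP5MC2 and ATP5MC3 encode the same mature subunit c of the rotor. ATP5MC3 was at 208, 200.0, 201 and 202 CPM in DMSO, 159, 161, 164 and 168 CPM in MI-503 and 116, 125 and 143 CPM in the combination, lower in each treatment group without overlap. It fell at -0.31 (SE 0.05, adjusted p = 7.02e-05) in MI-503 and -0.67 (SE 0.06, adjusted p = 1.67e-08) in the combination, and ATP5MC1 at -0.38 (SE 0.10, adjusted p = 0.00408) and -0.69 (SE 0.11, adjusted p = 2.46e-05). ATP5MC2 was not called in MI-503, at -0.05 (SE 0.04, adjusted p = 0.398), and fell in the combination at -0.26 (SE 0.05, adjusted p = 0.000106). ATP5MG, a subunit of the membrane part, was lower in MI-503 at -0.20 (SE 0.05, adjusted p = 0.00279). In the combination it had the weakest call of complex V, -0.13 (SE 0.05, adjusted p = 0.0439), which was lost in 9 of the 11 fits without 1 library, and 0.07 (SE 0.05, adjusted p = 0.295) between the treatments, called higher without combination replicate 1 (0.12, adjusted p = 0.0290).

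**Figure D3:**
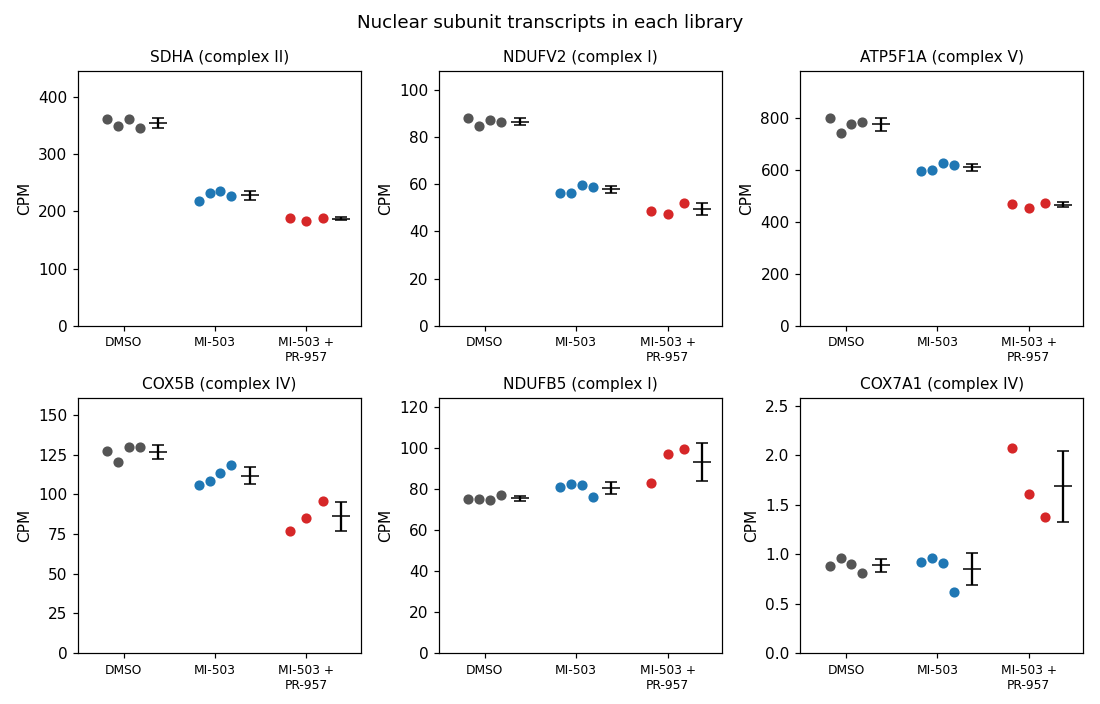
CPM of 6 nuclear members in each library of the 3 groups, with mean ± SD beside the points and each axis starting at 0. SDHA, NDUFV2, ATP5F1A and COX5B fall from group to group, NDUFB5 is highest in the combination, and COX7A1 rises from below 1 CPM in all 8 DMSO and MI-503 libraries to above 1 CPM in all 3 combination libraries.

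Mitochondrial transcripts did not move as a block in MI-503. COX2, a copper subunit of complex IV, rose most, from 4004, 3474, 3588 and 3684 CPM in DMSO to 4762, 4794, 4653 and 4581 CPM in MI-503, and stood at 4017, 3164 and 3172 CPM in the combination. All MI-503 libraries lay above all others, and combination replicate 1 lay above the other 2 of its group. The log2 fold change was 0.35 (SE 0.07, adjusted p = 0.000366) in MI-503, -0.10 (SE 0.07, adjusted p = 0.265) in the combination and -0.44 (SE 0.07, adjusted p = 0.000105) between them. COX1 showed 0.25 (SE 0.07, adjusted p = 0.00485) in MI-503 and -0.29 (SE 0.07, adjusted p = 0.00385) between treatments, with -0.04 (SE 0.07, adjusted p = 0.687) for the combination against DMSO. COX3, the third subunit of complex IV made in mitochondria, was not called in MI-503, at 0.03 (SE 0.07, adjusted p = 0.779). It was the mitochondrial gene with the lowest value in the combination against DMSO, -0.34 (SE 0.07, adjusted p = 0.000528), and stood at -0.37 (SE 0.07, adjusted p = 0.000514) against MI-503, with levels of 5074, 4015 and 4042 CPM against 5993, 5330.5, 5291 and 5548 CPM in DMSO.

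ND4L with ND4, and ATP8 with ATP6, are known to sit on shared mRNAs with overlapping reading frames. ND4 was at 7157, 5996, 6073 and 6352 CPM in DMSO, 7849, 8105, 7749.5 and 7770.1 CPM in MI-503 and 7278, 6011 and 6177 CPM in the combination. Its MI-503 libraries were above all others. Its fold change in MI-503 was 0.30 (SE 0.06, adjusted p = 0.000932) and that of ND4L 0.30 (SE 0.06, adjusted p = 0.000806), with -0.28 (SE 0.07, adjusted p = 0.00359) and -0.38 (SE 0.07, adjusted p = 0.000324) between treatments. Neither was called in the combination against DMSO, at 0.02 (SE 0.07, adjusted p = 0.807) and -0.07 (SE 0.07, adjusted p = 0.393). ATP6 and ATP8, subunits of the proton channel of complex V and its partner, were higher in MI-503 at 0.21 (SE 0.07, adjusted p = 0.0239) and 0.25 (SE 0.08, adjusted p = 0.0194). Their groups overlapped, since DMSO replicate 1 reached 6749 CPM for ATP6 and 603 CPM for ATP8. The call of ATP6 was lost in 5 and that of ATP8 in 3 of 11 fits without 1 library. Between treatments they fell at -0.37 (SE 0.08, adjusted p = 0.00115) and -0.42 (SE 0.09, adjusted p = 0.00117), and against DMSO the combination gave -0.16 (SE 0.08, adjusted p = 0.0935) and -0.17 (SE 0.09, adjusted p = 0.114). In the last comparison, without combination replicate 1, ATP6 (-0.26, adjusted p = 0.000731), ATP8 (-0.27, adjusted p = 0.00352), COX1 (-0.14, adjusted p = 0.0266) and COX2 (-0.20, adjusted p = 0.00121) were called lower.

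Fragments that touch exons of more than 1 gene were not counted, so those over the shared bases of both pairs are missing in every library. Capitals mark the shared bases in hg38, 46 for the first pair and 7 for the second.
ATP8 and ATP6, chrM:8527-8572, plus strand: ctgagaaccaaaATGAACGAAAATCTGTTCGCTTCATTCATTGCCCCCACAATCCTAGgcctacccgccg
ND4L and ND4, chrM:10760-10766, plus strand: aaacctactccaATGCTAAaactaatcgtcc

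The other mitochondrial genes of complex I fell or were not called. ND1 was at 6211, 5152, 5252 and 5569 CPM in DMSO, 4754, 4949.9, 4725 and 4755 CPM in MI-503 and 4761, 4262 and 4678 CPM in the combination, all treated libraries being below all DMSO libraries. It fell at -0.21 (SE 0.06, adjusted p = 0.00565) in MI-503 and -0.28 (SE 0.06, adjusted p = 0.000817) in the combination, with -0.07 (SE 0.06, adjusted p = 0.374) between them. ND2 was lower in the combination, at -0.25 (SE 0.06, adjusted p = 0.00103) against DMSO and -0.21 (SE 0.06, adjusted p = 0.00495) against MI-503, with -0.03 (SE 0.05, adjusted p = 0.629) in MI-503 alone. ND3 gave -0.12 (SE 0.05, adjusted p = 0.0618), -0.13 (SE 0.06, adjusted p = 0.0515) and -0.01 (SE 0.06, adjusted p = 0.906) and was not called. ND5 gave 0.04 (SE 0.07, adjusted p = 0.626), -0.11 (SE 0.08, adjusted p = 0.219) and -0.15 (SE 0.08, adjusted p = 0.107), again without a call.

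CYTB, the mitochondrial subunit of complex III, had no call either, with 0.06 (SE 0.05, adjusted p = 0.366), -0.04 (SE 0.06, adjusted p = 0.597) and -0.10 (SE 0.06, adjusted p = 0.181). ND6, the member on the opposite strand of mitochondrial DNA, gave 0.05 (SE 0.07, adjusted p = 0.616), -0.10 (SE 0.08, adjusted p = 0.306) and -0.15 (SE 0.08, adjusted p = 0.151). Counting took no account of strand, so its reads and those of RNA from the other strand cannot be told apart. ND5 and ND6 were called lower between treatments without combination replicate 1 (-0.22, adjusted p = 0.0177 and -0.20, adjusted p = 0.0428) or replicate 4 (-0.23, adjusted p = 0.0258 and -0.24, adjusted p = 0.0238), and CYTB without replicate 4 (-0.17, adjusted p = 0.0183). ND3 was called lower in the combination against DMSO without DMSO replicate 2 (-0.15, adjusted p = 0.0487), DMSO replicate 3 (-0.16, adjusted p = 0.0275) or combination replicate 4 (-0.16, adjusted p = 0.0276), and in MI-503 without DMSO replicate 3 (-0.15, adjusted p = 0.0336) or MI-503 replicate 1 (-0.15, adjusted p = 0.0457). Nuclear copies of mitochondrial DNA hold part of these genes exactly: 27.9% of the 100-base windows of COX1, 26.1% of ND2, 11.9% of ATP6, 10.97% of ND1, 4.67% of COX3 and 2.39% of COX2 recur on the main chromosomes.

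**Figure D4:**
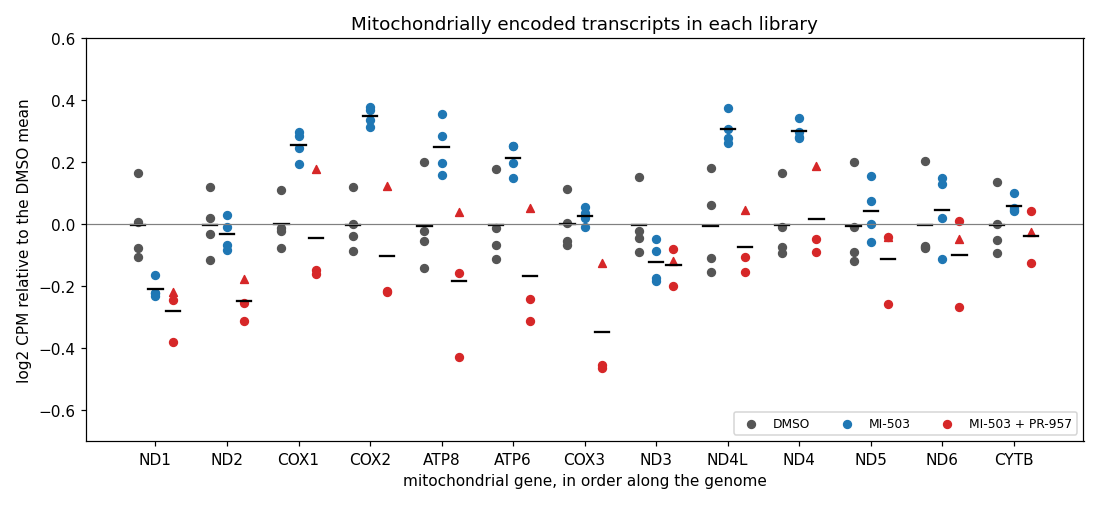
Log2 CPM of the 13 mitochondrial genes in each library relative to the DMSO mean, in their order along the mitochondrial genome; points are libraries, the triangle is combination replicate 1 and black bars are group means. The MI-503 points of COX1, COX2, ND4L and ND4 lie above all DMSO points, those of ND1 lie below them, and the triangle is the highest combination point for 9 of the 13 genes.

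**Figure D5:**
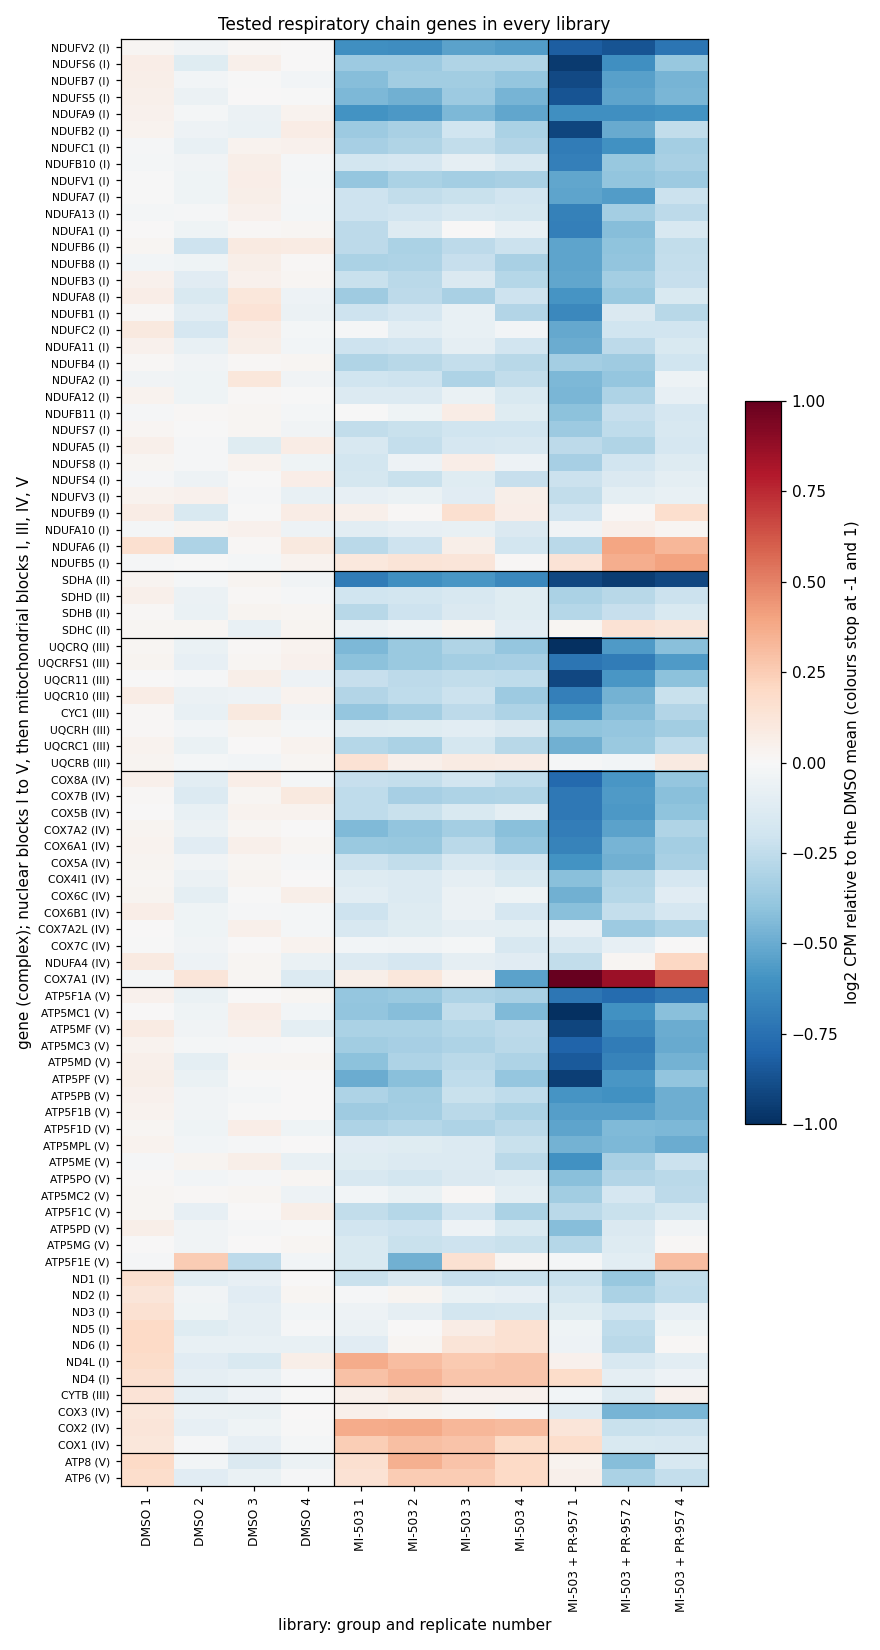
Log2 CPM relative to the DMSO mean for tested members (rows, by genome and complex) in the 11 libraries (columns). Blue, below the DMSO mean, fills most nuclear rows in MI-503 and deepens in the combination, most in replicate 1, where the nuclear median was -0.52, while several mitochondrial rows are red in MI-503.

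Members outside the filter divide by how they are annotated. NDUFS1, NDUFS3 and UQCRC2 have all their exon bases, and NDUFA3 69.2% of them, annotated on a further contig of hg38 as well, and had 0, 5, 60 and 11 counts over all libraries. NDUFA6 passed the filter at 3.02 ± 0.413 CPM in DMSO (SD, n = 4) and likewise has all exon bases on further contigs. All windows of NDUFA3, NDUFA6 and COX8C were also found on other contigs of the genome searched, and none of those of NDUFS1, NDUFS3 and UQCRC2 were. Why the counts of these genes are low was not tested, and they are not given here as low expression. COX4I2, COX6A2, COX6B2, COX7B2, COX8C and ATP5MGL had at most 24 counts. ATP5F1E, the epsilon subunit, passed at 3.24 ± 0.475 CPM and shares 40.7% of its exon bases with neighboring genes.

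Nuclear members with at least 1 promoter string had medians close to those of members without. The medians for single strings differed more in some comparisons. In MI-503 the median log2 fold change was -0.22 for the 29 tested members with at least 1 of the 3 strings and -0.23 for the 31 without, and in the combination against DMSO it was -0.38 and -0.39. Members with the NRF1 string numbered 13, with medians of -0.22 and -0.29, against -0.22 and -0.41 for the 47 without. For the ETS string the medians were -0.18 and -0.42 in 18 members with it and -0.23 and -0.37 in 42 without. For the YY1 string they were -0.22 and -0.31 in 8 members with it and -0.22 and -0.39 in 52 without. In the combination against MI-503 the medians with and without a string were -0.24 and -0.15 for ETS and -0.06 and -0.18 for YY1. There they were -0.11 and -0.17 for NRF1 and -0.17 and -0.17 for any of the 3. These values describe the members and were not tested.

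Other genes that serve the respiratory chain were followed as fixed lists. Of 55 tested assembly factors for the 5 complexes, 35 were lower and 2 higher in MI-503 (29.3% and 22.0% of all genes) and 37 lower and 3 higher in the combination against DMSO (32.8% and 31.7% of all genes). Between treatments 16 were lower and 10 higher, shares near the 23.8% and 23.6% of all genes, so that this count shows nothing particular to the list. The medians were -0.21, -0.30 and -0.12. For complex I, NDUFAF2 fell at -0.68 (SE 0.07) in MI-503 and -1.01 (SE 0.07) in the combination. DMAC1 fell in the combination, at -0.79 (SE 0.06, adjusted p = 5.77e-09) against DMSO and -0.78 (SE 0.06, adjusted p = 2.60e-08) against MI-503, with no call in MI-503 (adjusted p = 0.969). NDUFAF1 fell at -0.60 (SE 0.06) in MI-503 and was higher in the combination than in MI-503 at 0.30 (SE 0.07). For complex II, SDHAF3 fell at -0.30 (SE 0.06) and -0.95 (SE 0.07) and SDHAF2 at -0.20 (SE 0.06) in MI-503. SDHAF4 was lower in the combination at -0.38 (SE 0.08) against DMSO.

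Assembly factors of complexes III, IV and V moved in both directions. For complex III, BCS1L and UQCC1 fell in MI-503 at -0.21 (SE 0.05) and -0.21 (SE 0.05), LYRM7 and UQCC3 in the combination against DMSO at -0.18 (SE 0.05) and -0.53 (SE 0.09), and UQCC2 between treatments at -0.45 (SE 0.10). For complex IV, SCO1, which delivers copper, fell at -0.47 (SE 0.04) and -0.66 (SE 0.04), TACO1 in MI-503 at -0.49 (SE 0.06), COA4 in the combination at -0.65 (SE 0.06) and COX18 between treatments at -0.36 (SE 0.07). COX19, also of the copper path, rose between treatments at 0.49 (SE 0.06). For complex V, TMEM70 fell at -0.53 (SE 0.05) and -0.54 (SE 0.06) and ATPAF1 in the combination at -0.52 (SE 0.09). DMAC2, listed under complex V although its protein is also known for assembly of complex I, was lower in MI-503 at -0.24 (SE 0.05) and, with TMEM242, higher between treatments at 0.20 (SE 0.05) and 0.35 (SE 0.08).

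Genes that read and copy mitochondrial DNA were mostly lower while several mitochondrial transcripts rose in MI-503. Of 10 tested, 8 fell in MI-503 (29.3% of all genes) and 7 in the combination against DMSO (32.8% of all genes) with 0 higher in each (22.0% and 31.7% of all genes), and between treatments 4 fell and 2 rose (23.8% and 23.6% of all genes). TFAM, which packs mitochondrial DNA and starts its transcription, fell at -0.49 (SE 0.04, adjusted p = 5.41e-08) and -0.86 (SE 0.05, adjusted p = 6.72e-11). TFB2M, its partner at the promoter, fell at -0.86 (SE 0.07, adjusted p = 4.45e-08) and -1.11 (SE 0.08, adjusted p = 2.08e-09). TWNK, the helicase of mitochondrial DNA, fell at -0.98 (SE 0.06, adjusted p = 6.42e-10) in the combination against DMSO and -0.43 (SE 0.06, adjusted p = 2.87e-05) against MI-503. POLRMT, the RNA polymerase, fell at -0.29 (SE 0.04, adjusted p = 3.26e-06) in MI-503 and was chosen for mention after its values were seen.

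Of 17 genes for processing, stability and decay of mitochondrial RNA, 15 fell in MI-503 (29.3% of all genes), 14 fell and 1 rose in the combination against DMSO (32.8% and 31.7% of all genes), and 8 fell and 3 rose between treatments (23.8% and 23.6% of all genes). SUPV3L1 and PNPT1, which form the complex that degrades mitochondrial RNA, fell in MI-503 at -0.60 (SE 0.04, adjusted p = 5.93e-09) and -0.61 (SE 0.05, adjusted p = 3.29e-08). TRMT10C, a subunit of the enzyme that cuts out tRNAs, fell at -0.97 (SE 0.06, adjusted p = 7.37e-10) in the combination, and TBRG4 fell between treatments at -0.33 (SE 0.04, adjusted p = 1.00e-05). REXO2, an enzyme that degrades short RNAs, rose between treatments at 0.57 (SE 0.05, adjusted p = 2.32e-07).

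Of 7 nuclear regulators of respiratory genes, 4 fell and 1 rose in MI-503 (29.3% and 22.0% of all genes), 4 fell and 2 rose in the combination against DMSO (32.8% and 31.7%), and 3 fell between treatments (23.8%). PPARGC1A, a coactivator known to induce mitochondrial genes, had only 113 counts over all libraries. Its values, the largest in this list, were 2.27 (SE 0.45, adjusted p = 0.000432) in MI-503 and 1.57 (SE 0.51, adjusted p = 0.0130) in the combination against DMSO. With so few counts and its lowest level in DMSO, it likely passed the filter only through treated libraries. These values, and the 1 rise counted in MI-503, are therefore not read as a result. PPARGC1B, a relative of PPARGC1A, rose in the combination at 0.23 (SE 0.05, adjusted p = 0.00158), and both were chosen for mention after their values were seen. GABPB1 fell at -0.38 (SE 0.06, adjusted p = 2.88e-05) and -0.64 (SE 0.06, adjusted p = 1.05e-07), PPRC1 at -0.30 (SE 0.05) and -0.49 (SE 0.06), and GABPA between treatments at -0.23 (SE 0.06, adjusted p = 0.00517). Of 11 genes of coenzyme Q synthesis, 8 fell in MI-503 (29.3% of all genes), 9 fell and 1 rose in the combination against DMSO (32.8% and 31.7%), and 4 fell and 1 rose between treatments (23.8% and 23.6%). COQ3 and PDSS1 fell at -0.63 (SE 0.08) and -0.41 (SE 0.08) in MI-503, and COQ8A between treatments at -0.32 (SE 0.06). Of 12 genes of the citric acid cycle, 11 fell in MI-503 (29.3% of all genes) and 11 in the combination against DMSO (32.8%). Between treatments 3 were lower and 2 higher, shares near or below those of all genes (23.8% and 23.6%). FH and SUCLG2 fell in MI-503 at -0.60 (SE 0.05) and -0.45 (SE 0.04), and MDH2 in the combination at -0.72 (SE 0.04). Of 3 chain proteins outside the naming pattern, CYCS, cytochrome c, fell at -0.34 (SE 0.07) and -0.58 (SE 0.08), NDUFAB1 at -0.46 (SE 0.06) and -0.63 (SE 0.06), both again between treatments, and ATP5IF1 had 3 counts in all.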

How the data were processed

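RNA from MOLM-13 cells had been made into TruSeq libraries from poly(A) RNA and sequenced in pairs. Deposited per gene were fragment counts, without normalization. Per the file headers, the authors counted fragments over RefSeq exons of hg38 with featureCounts, without regard to strand, and left out fragments with several places or several genes. The submitters' processing notes name Trimmomatic 0.39, STAR 2.7.10a and featureCounts 2.0.1. The headers show that alignments had been filtered, by unstated criteria. The joined count table differed from the single libraries in 0 cells. Tables of differential expression by the authors hold log2 fold changes and p-values from DESeq2 and were not used.

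Of 38557 genes 14683 passed filterByExpr (10 counts at least, a total of 15, large n at 10). The 11 libraries were fitted together in edgeR 4.0.16 (R 4.3.3) with a mean per group and TMM factors (0.956 to 1.06), and contrasts were tested two-sided with the quasi-likelihood test and Benjamini-Hochberg adjustment over all genes. "Adjusted p" refers to it, and a gene was called under 0.05. The biological coefficient of variation was 6.14% with 8 residual degrees of freedom. CPM were TMM-scaled, except in sums of marker lists, and SE belongs to the fold change. In simulated counts for MI-503 against DMSO the calls were checked to recover the changed genes. The simulation raised and lowered equal numbers of genes. It did not test the choice of scaling factors or changes as small as those of most members. Alternatives were RLE, upper-quartile and nuclear-only scaling, other filters, DESeq2 1.42.0, limma-voom 3.58.1, a stricter threshold, fits on 2 groups, leaving out each library, and a replicate block.

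Named were all mitochondrial and SDH members, per complex and comparison the nuclear member of at least 5 CPM with the highest, the lowest and the most significant change, members called against their complex, the isoform families, those outside the filter, and 2 genes per list and comparison, and a few further ones are named as examples. The members and the lists were chosen with earlier results of these data known. All symbols of the lists matched the files. Promoters are from RefSeq, and exact 100-base windows were searched in hg38. COX7A1, the scarcest tested member, had 15 to 88 counts per library. Some genes that this rule names are not reported here. Same-numbered libraries of MI-503 and the combination correlated at 0.202, 0.187 and 0.253 in their deviations from the group means, all above 0.1. A pairing by number would be taken from these data and not from the labels, and the main fit used none. Same-numbered libraries of DMSO with either treatment did not all pass 0.1. Differently numbered libraries of MI-503 and the combination also passed 0.1, such as MI-503 replicate 3 with combination replicate 4 (0.349).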

Additional observations from a re-analysis of the deposited data

Results flagged for a closer look

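In groups of 4 libraries, 9 of 92 sets of values had a library whose gap to the nearest other exceeded Dixon's 95% critical share of the group's range, a limit that chance passes in about 1 of 20 groups. In DMSO these were ATP5MC2 (234, 234, 234 and 224 CPM, gap 0.930 of the range), ND6 (1949.8, 1608, 1610.3 and 1615 CPM, 0.981) and SDHC (146, 146, 137 and 147 CPM, 0.891). For ND6 the library apart was replicate 1, which was also the highest DMSO library for the other 12 mitochondrial genes. In MI-503 they were COX6A1 (133, 132, 143 and 132 CPM, 0.916), COX7A1 (0.926, 0.959, 0.908 and 0.614 CPM, 0.853), COX7C (168, 167, 168 and 153 CPM, 0.883), CYTB (2868, 2972, 2858 and 2849.9 CPM, 0.853) and ND1 (4754, 4949.9, 4725 and 4755 CPM, 0.868). The share of fragments from mitochondrial genes was also apart in 1 MI-503 library, at 6.01, 6.15, 6.01 and 6.01% (0.961). The cause was not tested, and the 3 combination libraries are too few for this rule.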

How the results depend on the processing

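Nuclear members called higher in MI-503 against DMSO, 0 as reported, numbered 1 with RLE factors or DESeq2, 2 with upper-quartile factors, nuclear-only scaling or the stricter filter, 3 with only the groups compared, and 0 to 3 when a library was left out. Those called lower, 53 as reported, numbered 47 with RLE factors or nuclear-only scaling and 45 to 53 when a library was left out. With upper-quartile factors they numbered 44, with a median of -0.16 against 0.03 over all genes tested. Nuclear members called lower in the combination against MI-503 were 23 and called higher 2 at an adjusted p under 0.01. Leaving out a library gave 29 to 57 and 1 to 7 for these, 2 to 5 nuclear members higher and 3 to 7 mitochondrial genes lower in the combination against DMSO, and 1 to 2 mitochondrial genes lower in MI-503. Without a filter 5 mitochondrial genes were lower in the combination against DMSO. Leaving out a library moved nuclear medians to between -0.46 and -0.29 in the combination against DMSO and between -0.26 and -0.10 against MI-503, and the mitochondrial median against MI-503 to between -0.39 and -0.26. Mitochondrial medians against DMSO ran from 0.03 (without DMSO replicate 2) to 0.12 (without DMSO replicate 1) in MI-503, and from -0.15 (without DMSO replicate 2) to -0.04 (without combination replicate 2) in the combination. NDUFA4 in the combination against DMSO ran from -0.12 to 0.13 when a library was left out, with 0.13 without combination replicate 1. With counts of nuclear genes as the denominator the shares were 6.43% (mitochondrial, MI-503), 1.16% (nuclear, DMSO) and 1.02% (nuclear, MI-503). Over all genes, upper-quartile factors gave 3968 higher and 3356 lower in MI-503, against 3235 and 4307 as reported. The cause was not tested.

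Replicate numbers did not pair DMSO with either treatment: same-numbered libraries correlated from -0.35 to 0.37 with MI-503 and from -0.07 to 0.11 with the combination in their deviations, and not every sample correlated best with its own number. The reported fit paired no libraries, and the block by number was an alternative. Between MI-503 and the combination, combination replicate 4 correlated more with MI-503 replicate 3 (0.349) than with MI-503 replicate 4 (0.253). With the number as a replicate block, 54 nuclear members were lower and 0 higher in MI-503, with 6 mitochondrial genes higher and 2 lower, 64, 2, 0 and 4 in the combination against DMSO, and 32, 4, 0 and 8 against MI-503.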
